A study of Homo sapiens with 17 samples.

Results

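The ERVL copies described here are the repeat loci whose family is exactly ERVL and whose subfamily name starts with neither HERVL nor MLT2. They numbered 84267 of the 3594049 repeat loci in the table (2.34%) and carried 103 subfamily names, both internal parts (names ending in -int) and LTRs. Their median length was 308 bases and their median divergence was 261, in the units of the locus names, where 10 stand for 1% of bases that differ from the consensus. Over all repeat loci the medians were 264 bases and 198, and over the 26563 HERVL and MLT2 loci of the same family they were 393 bases and 182. The members were thus shorter and further from their consensus than those relatives.

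ERVL elements are endogenous retroviruses that entered the genome of early mammals and are distantly related to foamy viruses. An intact copy has an internal part, which once coded for viral proteins, between a pair of long terminal repeats (LTRs). The LTRs hold the viral promoter and polyadenylation signal, and most copies are now solitary LTRs left by recombination. In mouse, the youngest ERVL elements are transcribed in the early embryo, whereas most human copies described here have long lost their coding capacity.

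RNA was measured in N2102Ep, an established human embryonal carcinoma line, in 17 libraries: 4 of RNA recovered with the LINE-1 protein ORF2p (ORF2p RIP), 4 of RNA recovered with ORF1p (ORF1p RIP), 3 of a mock IP and 6 of total RNA. ORF1p is the RNA-binding protein and ORF2p the endonuclease and reverse transcriptase of LINE-1, the retrotransposon that still moves in human cells. The labels name no genotype, drug or time for any group. Those of the ORF2p RIP, the mock IP and the total RNA name clone 2/A6 of the line, those of the ORF1p RIP give only "embryonal" as the source, and a difference of clone and a difference of group cannot be told apart. The mock IP descriptions carry the term mIgG, and the sources used here do not say which RIP antibody it matches. Nothing in the labels says that libraries of a group came from separate cultures, so the p-values below reflect library-to-library spread and nothing more, and that spread could be technical. In bulk RNA, fewer cells and less RNA per cell cannot be told apart.

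Some libraries stood apart. The repeat reads per library ranged over 9795032 to 17056092 in the ORF2p RIP, 7693841 to 9125527 in the ORF1p RIP, 12703395 to 16271143 in the mock IP and 8937441 to 19670774 in the total RNA. Replicate 3 of the ORF1p RIP had 4.28% of its repeat reads in L1HS, the youngest LINE-1 subfamily, against 1.60% to 1.85% in the other ORF1p RIP libraries. L1HS took 1.34% to 1.47% in the ORF2p RIP, 0.177% to 0.194% in the mock IP and at most 0.284% in the total RNA. Replicates 1 and 2 of the total RNA carry b in their descriptions and replicates 3 to 6 carry bl, and these 2 sets differed in many repeats. HERVH-int, a repeat active in pluripotent cells, took 8.05% to 12.7% of total RNA repeat reads, and repeats in the spans of the pluripotency genes POU5F1, LIN28A, LIN28B, L1TD1 and DPPA4 were all read. Those libraries are named below at some of the results that they move.

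Sequence at the members bears on which of them sit at gene starts, and 3 promoters are shown for that reason. RefSeq promoter windows (250 bases before and 50 after a listed start site, GRCh38.p14) overlapped 316 member loci in 338 windows. The start site itself lay inside a member in 203 windows of 195 genes, on the member's strand in 113 windows and on the opposite strand in 90. Of these loci, 69 had no read in any library, 17 had at least 100 reads in all, and 1 had enough reads to be tested. The 250 bases before the start of PTCHD4 (a patched domain gene), LINC00308 and SDAD1-AS1 (both long noncoding RNAs) are printed in the direction of the gene, with 1 motif match in capitals, which reads TATAAA in LINC00308 and, in the other pair, is CCAAT read on the opposite strand. PTCHD4 holds the tested member, while LINC00308 and SDAD1-AS1, chosen after their reads were seen, lie wholly inside a member.
PTCHD4, chr6:48111198-48111447, minus strand: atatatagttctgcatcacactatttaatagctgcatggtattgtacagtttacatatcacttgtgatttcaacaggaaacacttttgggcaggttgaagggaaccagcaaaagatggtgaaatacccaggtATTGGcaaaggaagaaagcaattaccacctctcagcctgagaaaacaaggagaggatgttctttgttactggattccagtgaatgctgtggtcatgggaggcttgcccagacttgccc
LINC00308, chr21:22098367-22098616, plus strand: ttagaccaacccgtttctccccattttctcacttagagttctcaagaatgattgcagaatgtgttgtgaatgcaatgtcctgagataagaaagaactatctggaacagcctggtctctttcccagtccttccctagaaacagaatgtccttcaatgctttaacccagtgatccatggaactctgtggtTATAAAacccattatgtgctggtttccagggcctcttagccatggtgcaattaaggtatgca
SDAD1-AS1, chr4:75980540-75980789, plus strand: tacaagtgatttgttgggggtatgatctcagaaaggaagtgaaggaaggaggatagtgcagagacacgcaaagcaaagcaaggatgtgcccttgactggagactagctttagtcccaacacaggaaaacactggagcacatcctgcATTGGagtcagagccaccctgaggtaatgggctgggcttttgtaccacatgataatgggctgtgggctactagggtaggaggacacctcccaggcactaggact

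In PTCHD4, 164 of these bases belong to a LTR33 copy that lies on the plus strand, opposite to the gene, and the marked match starts 118 bases before the start site. All 250 bases of LINC00308 lie in a MER70A copy of the same strand, with TATAAA 62 bases before the start. All 250 bases of SDAD1-AS1 lie in a LTR16A1 copy of the opposite strand, with the match 104 bases before the start. Counting both strands, TATAAA was present in 17 of the 78 windows that lay wholly inside a member (21.8%) and in 10.7% of all 35116 windows. CCAAT was present in 33 of the 78 (42.3%) and in 32.0% of all windows. The letters of AATAAA, which can overlap those of TATAAA, were present in 21 of the 78 (26.9%) and in 5631 of all windows (16.04%). These are matches of letters and not binding sites.

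The LTR33 copy at PTCHD4 (chr6:48110975-48111361) was read in all groups, with its highest mean in the ORF1p RIP. In CPM, which are reads scaled to the repeat reads of each library with TMM normalisation, it had 11.9, 10.2, 17.9 and 11.3 in the ORF2p RIP, 16.3, 16.2, 17.2 and 19.1 in the ORF1p RIP, 9.71, 10.4 and 12.7 in the mock IP, and 10.1 to 14.6 in the total RNA with a median of 12.8. Its ORF1p RIP libraries all lay above its mock IP libraries, by 0.66 ± 0.28 on the log2 scale (SE, edgeR adjusted p = 0.037), which is under the 2-fold limit used for calls. The MER70A copy at LINC00308 had 1.02 to 2.32 CPM in the ORF2p RIP and 1.03 to 3.70 CPM in the total RNA, but was at 0 in 3 of 4 ORF1p RIP libraries. The LTR16A1 copy at SDAD1-AS1 was read in all 4 ORF1p RIP libraries, at 1.37 to 2.88 CPM, and in every other library at 0.396 to 2.20 CPM. Both were too shallow for the test.

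The members took a smaller share of repeat reads in the RIPs than in the mock IP. Their share was 1.46% ± 0.0665 in the ORF2p RIP (SD, n = 4), 1.65% ± 0.234 in the ORF1p RIP (n = 4), 2.00% ± 0.0375 in the mock IP (n = 3) and 2.06% ± 0.271 in the total RNA (n = 6). No ORF2p RIP library (1.39% to 1.52%) and no ORF1p RIP library (1.30% to 1.82%) reached the lowest mock IP library (1.96%). The lowest ORF1p RIP value was replicate 3, and the mean without it was 1.77%. Total RNA replicates 1 and 2 had 2.40% and 2.42%, whereas replicates 3 to 6 had 1.85% to 1.97%. The HERVL and MLT2 loci took 0.552%, 0.586%, 0.772% and 0.780% in the ORF2p RIP, ORF1p RIP, mock IP and total RNA, and the ERVL-MaLR loci 4.30%, 4.64%, 5.38% and 5.48%, the same order of means. These shares were not tested, and they depend on all other repeats in a library: HERVH-int alone took 5.87% of ORF2p RIP reads, 4.04% of ORF1p RIP reads and 18.9% of mock IP reads.

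**Figure D1:**
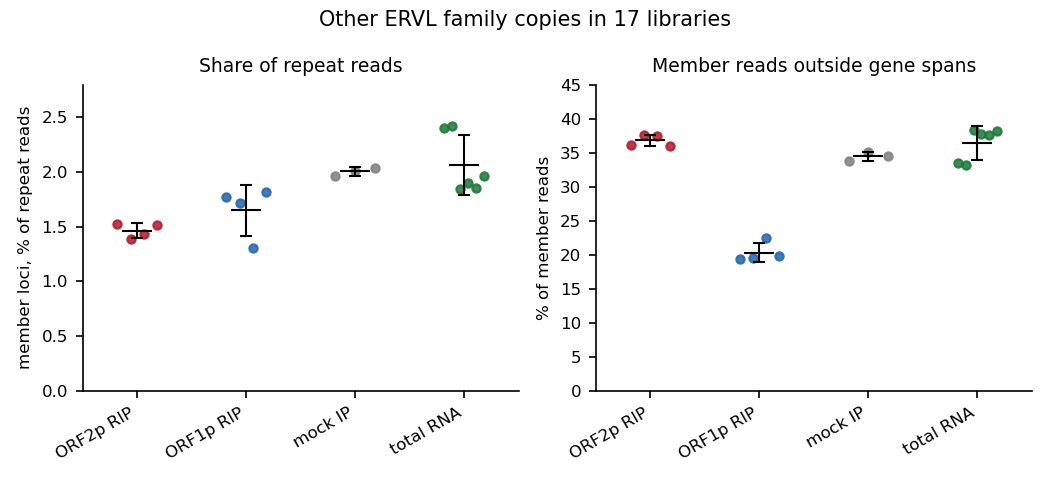
Left, member loci as a percentage of all repeat reads in each library; right, the percentage of member reads that fall outside RefSeq gene spans. Points are libraries, horizontal marks are means and bars are 1 SD; the ORF1p RIP libraries lie apart from all others on the right, at 19.4% to 22.4%.

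The reads were spread thinly. Of the 84267 loci, 65975 (78.3%) had a read in at least 1 library and 18292 had none, and a single library read 10666 to 37677 of them. Internal parts took 21.6% ± 0.874 of member reads in the ORF2p RIP, 17.1% ± 0.439 in the ORF1p RIP, 19.8% ± 0.590 in the mock IP and 21.2% ± 0.954 in the total RNA. Every ORF1p RIP library (16.6% to 17.6%) was below every other library.

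By subfamily, 6 names carried the highest levels over the mean of the 4 groups: the LTRs MER21C (1433 CPM), LTR33 (991 CPM) and MER21B (745 CPM), and the internal parts ERVL-E-int (1200 CPM), ERV3-16A3_I-int (730 CPM) and ERVL-B4-int (724 CPM). Per megabase of copies the order changed, with MER21C at 759 and ERVL-E-int at 445 CPM per Mb, while the small subfamilies LTR80B and LTR40A1 had 1688 and 1309. In the ORF1p RIP the 3 internal parts and LTR33 were below their mock IP levels, by less than 2-fold. ERVL-E-int had 853, 856, 755 and 884 CPM in the ORF1p RIP, and the mock IP averaged 1270 ± 40.6 CPM (SD, n = 3). The groups did not overlap, and the difference was -0.60 ± 0.06 on the log2 scale (SE, edgeR adjusted p = 1.05e-06). In the ORF2p RIP it averaged 1347 ± 9.04 CPM, a change of 0.09 ± 0.06 against the mock IP (adjusted p = 0.328). The changes of ERV3-16A3_I-int, LTR33 and ERVL-B4-int in the ORF1p RIP against the mock IP were -0.64 ± 0.07, -0.64 ± 0.12 and -0.36 ± 0.06, all past the test and below 2-fold. MER21C and MER21B did not pass the test there (-0.08 ± 0.13 and 0.02 ± 0.14).

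Against the mock IP, the ORF1p RIP changed 12 of the 102 tested member subfamilies by at least 2-fold at an edgeR adjusted p below 0.05, with 5 higher and 7 lower. Over all 1074 tested subfamilies 16.1% were called (7.36% higher and 8.75% lower), so the members' 11.8% is not above the background. The higher ones were LTR57-int, LTR86C, LTR108a_Mam, LTR42 and MER70-int, and the lower ones LTR40A1, MER76-int, LTR80B, LTR16D2, LTR18B, ERVL47-int and LTR69. Scaled by library totals, the split was 3 higher and 11 lower. Here and below, library totals shift all subfamilies and the share called over all of them is not given. Such splits are therefore not results about the members. In the main fit the median log2 change was -0.18 over the members and 0.02 over all subfamilies tested. By kind, 2 of 13 internal parts were higher and 2 lower, and of the 13 names with the stem LTR16 the median change was -0.50 and 2 lay above 0.

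LTR57-int had the largest rise. It had 74.8, 71.9, 120 and 71.9 CPM in the ORF1p RIP and 33.4, 30.2 and 24.6 CPM in the mock IP, a difference of 1.52 ± 0.21 on the log2 scale (SE, edgeR adjusted p = 1.32e-05). Replicate 3 stood above the other 3 ORF1p RIP libraries, and all 4 exceeded every other library in the study. LTR86C rose to 68.9, 67.8, 103 and 74.1 CPM in the ORF1p RIP, against 35.4, 32.8 and 31.8 CPM in the mock IP (1.23 ± 0.14, adjusted p = 2.12e-06). MER70-int, at 72.3 ± 3.57 CPM in the ORF1p RIP and 36.1 ± 5.01 CPM in the mock IP, lay just past the 2-fold limit (1.001 ± 0.19, adjusted p = 0.000314) and fell under it in 8 of the alternatives, among them without replicate 1, 3 or 4 of the ORF1p RIP and without mock IP replicate 2 (0.90). LTR108a_Mam depended on replicate 3 of the ORF1p RIP: its change was 1.18 ± 0.22, and 0.97 without that library.

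LTR40A1 had the largest fall. It had 56.2, 45.3, 50.5 and 56.4 CPM in the ORF1p RIP, against 170, 193 and 207 CPM in the mock IP, and it changed by -1.86 ± 0.13 on the log2 scale (SE, edgeR adjusted p = 1.29e-08). The ORF1p RIP libraries were also below all ORF2p RIP libraries (137, 115, 133 and 119 CPM) and all total RNA libraries (127 to 186 CPM). MER76-int fell to 11.6, 8.22, 4.35 and 10.5 CPM in the ORF1p RIP, against 31.4, 30.7 and 29.3 CPM in the mock IP (-1.79 ± 0.40, adjusted p = 0.00144). LTR80B fell to 55.3, 61.2, 69.6 and 53.3 CPM, against 135, 152 and 147 CPM in the mock IP (-1.28 ± 0.28, adjusted p = 0.00132), and LTR16D2 and LTR69 fell by 1.22 ± 0.19 and 1.05 ± 0.16. LTR69 was just under 2-fold without ORF1p RIP replicate 3 and at -0.89 without mock IP replicate 2. LTR80B also separated the total RNA sets, at 129 and 149 CPM in replicates 1 and 2 and 310 to 368 CPM in replicates 3 to 6.

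**Figure D2:**
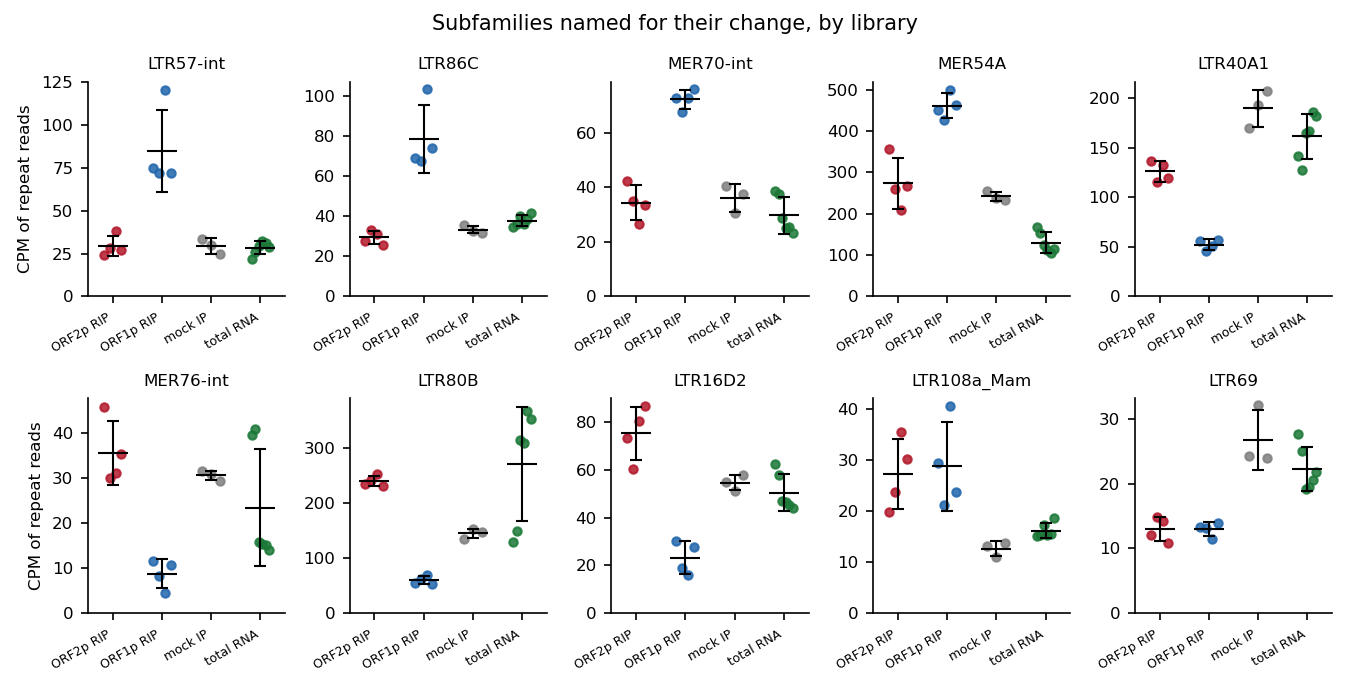
CPM of 10 member subfamilies in each library, on linear axes from 0. Points are libraries, horizontal marks are means and bars are 1 SD; LTR57-int, LTR86C and MER70-int are highest in the ORF1p RIP, LTR40A1, MER76-int, LTR80B and LTR16D2 lowest there, and the LTR80B and MER76-int total RNA libraries form 2 sets.

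Several of these subfamily calls leaned on 1 locus. Without the locus that holds the most reads of each subfamily, 6 member subfamilies were called in place of 12. The share over all subfamilies without leading loci is not given here or below. LTR47B (1.25) and MER54A (1.003), which are not among the 12, then lay past the 2-fold limit. The 6 therefore need not all belong to the 12. LTR57-int then changed by 0.62, LTR86C by 0.75, MER70-int by 0.91, MER76-int by -0.89, LTR80B by -0.80 and LTR69 by -0.82, all below 2-fold. The leading locus held a median of 21.7% of the reads of called member subfamilies and 10.6% in the others, and the called ones had fewer copies (a median of 186.5 against 501). LTR40A1 and LTR16D2 were still called without theirs.

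The ORF2p RIP differed from the mock IP in 2 of 102 member subfamilies, where 8.19% of all subfamilies were called (6.70% higher and 1.49% lower). LTR108a_Mam rose to 19.8, 23.7, 35.5 and 30.2 CPM, against 11.0 to 13.8 CPM in the mock IP (1.11 ± 0.22 SE, edgeR adjusted p = 0.0011). LTR69 fell to 12.1, 14.9, 14.3 and 10.9 CPM, against 24.3, 32.2 and 24.0 CPM (-1.05 ± 0.16, adjusted p = 0.000128). Neither pair of groups overlapped. Library totals gave 0 higher and 7 lower, with LTR108a_Mam at 0.81. LTR108a_Mam was at 0.96 without ORF2p RIP replicate 3, while LTR69 was at -0.90 without mock IP replicate 2, -0.97 without ORF2p RIP replicate 4 and -0.70 without its leading locus, so neither call held throughout. Leaving out mock IP replicate 2 or ORF2p RIP replicate 3 gave 1 call, and leaving out ORF2p RIP replicate 1 gave 4.

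Set directly against the ORF1p RIP, the ORF2p RIP was higher in 8 and lower in 8 of 102 member subfamilies, where 18.9% of all subfamilies were called (12.4% higher and 6.52% lower). The higher ones were MER76-int (2.01 ± 0.39), LTR80B (2.01 ± 0.27), LTR16D2 (1.69 ± 0.18), LTR40A1, ERVL47-int, LTR105_Mam, LTR86A2 and ERVL-int. The lower ones were LTR47B (-1.80 ± 0.35), LTR57-int (-1.53 ± 0.19), LTR86C (-1.42 ± 0.13), LTR108e_Mam, LTR47B3, LTR62, MER70-int and LTR75B. LTR16D2 had 73.5, 60.6, 80.8 and 86.8 CPM in the ORF2p RIP and 30.4, 19.0, 16.1 and 27.5 CPM in the ORF1p RIP (adjusted p = 9.81e-07), with no overlap. Library totals gave 4 higher and 14 lower, and without leading loci 10 subfamilies were called. LTR57-int was then at -0.81, LTR86C at -0.89 and MER70-int at -0.84, all below 2-fold. MER76-int, LTR80B, LTR16D2, LTR40A1 and LTR47B were still past 2-fold. MER54A, which is not among those listed, was then past the 2-fold limit at -1.14. With leading loci kept, MER70-int was at -0.97 without ORF2p RIP replicate 3.

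Against total RNA, the ORF1p RIP was higher in 6 member subfamilies and lower in 8, where 17.4% of all subfamilies were called (9.12% higher and 8.29% lower). MER54A stood first, at 452, 428, 500 and 464 CPM in the ORF1p RIP and 104 to 169 CPM in the total RNA with a mean of 130 ± 25.9 (1.83 ± 0.14 SE, edgeR adjusted p = 2.36e-08). The mock IP level of MER54A was 242 ± 11.1 CPM (SD, n = 3), also above the total RNA mean. LTR57-int (1.58 ± 0.16), MER70-int (1.28 ± 0.15), LTR42, LTR86C (1.06 ± 0.11) and MER68-int were also higher, and LTR80B (-2.18 ± 0.26), LTR108b_Mam (-1.74 ± 0.35), LTR40A1 (-1.63 ± 0.11), MER76-int (-1.42 ± 0.36), ERVL47-int, LTR16D2, LTR105_Mam and LTR18B lower. The LTR108b_Mam groups overlapped (2.36 to 7.91 CPM in the ORF1p RIP, 7.60 to 19.7 CPM in the total RNA). Without leading loci 9 subfamilies were called. LTR57-int was then at 0.66, LTR86C at 0.56, LTR108b_Mam at -0.68, MER76-int at -0.72 and LTR16D2 at -0.96, all below 2-fold. LTR47B, which is not among those listed, was then past the limit at 1.24. Against total RNA replicates 3 to 6 alone, MER76-int was at -0.78, LTR86C at 0.97 and LTR16D2 at -0.98. Against replicates 1 and 2 alone, MER70-int was at 0.86. Without ORF1p RIP replicate 3, LTR86C was at 0.90 and LTR16D2 at -0.98. Library totals gave 4 higher and 11 lower.

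The ORF2p RIP was higher than total RNA in 1 member subfamily and lower in none, where 6.42% of all subfamilies were called (5.12% higher and 1.30% lower). It was MER54A, at 357, 259, 210 and 267 CPM in the ORF2p RIP (1.07 ± 0.14 SE, edgeR adjusted p = 2.48e-05). Without its leading locus the change was 0.09, without ORF2p RIP replicate 1 it was 0.92, and against total RNA replicates 1 and 2 alone it was 0.71. Library totals gave 0 higher and 9 lower. Between the mock IP and total RNA edgeR called no member subfamily, 17 had an unadjusted p below 0.05, DESeq2 called 0, and 0.745% of all subfamilies were called. The comparisons with total RNA and with the mock IP share their RIP libraries, so their values are given side by side and are not independent.

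At single loci, 570 of the 84267 members passed the filter on low counts, from 87 subfamilies, among 30330 loci of the whole table. The filter passes a locus that is high in 1 group alone, so such a locus had to differ, and these loci are not all members. Against the mock IP, the ORF1p RIP was higher at 185 and lower at 296 of the 570, where 78.1% of all loci tested were called (39.0% higher and 39.1% lower), and the ORF2p RIP was higher at 100 and lower at 77, where 45.6% were called (30.4% and 15.2%). The ORF2p RIP was higher than the ORF1p RIP at 310 and lower at 169 (75.8% of all loci called, 46.8% and 29.0%). Against total RNA, the ORF1p RIP was higher at 183 and lower at 297 (79.4% called, 37.8% and 41.6%), the ORF2p RIP at 105 and 105 (52.4% called, 31.4% and 20.9%), and the mock IP at 24 and 21 (12.4% called, 8.28% and 4.09%). With library totals the ORF2p RIP was higher at 86 and lower at 133 against the mock IP and at 87 and 194 against total RNA, and the mock IP at 15 and 39 against total RNA. Without ORF1p RIP replicate 3, 620 members passed the filter, and the ORF1p RIP was higher at 191 and lower at 330 against the mock IP.

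The mock IP comparison with total RNA rested on few libraries: its 45 calls became 8, 13 and 12 without mock IP replicates 1, 2 and 3, 109 and 97 without total RNA replicates 1 and 2, and 24, 19, 22 and 22 without total RNA replicates 3 to 6. In the ORF1p RIP, 122 of the 570 loci had at most 3 reads over all 4 libraries and 38 had none, against 7 and 4 in the ORF2p RIP, 1 and 1 in the mock IP, and 2 and 0 in the total RNA. Over all 30330 loci 12.9% had at most 3 reads in the ORF1p RIP.

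Where a member lay relative to genes went with its change in the ORF1p RIP. Of all members 46.9% lay outside every RefSeq gene span, as did 36.0% of all repeat loci. Member reads outside spans made up 36.8% ± 0.846 in the ORF2p RIP (SD, n = 4), 20.3% ± 1.44 in the ORF1p RIP (n = 4), 34.4% ± 0.685 in the mock IP (n = 3) and 36.4% ± 2.44 in the total RNA (n = 6). The highest ORF1p RIP library was replicate 3, at 22.4%, still below the lowest library of any other group (33.2%). The same held for all repeat reads, of which 29.8%, 15.7%, 29.7% and 28.3% lay outside spans in the ORF2p RIP, ORF1p RIP, mock IP and total RNA.

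Set against the mock IP, the ORF1p RIP was higher at 28 and lower at 162 of the 205 tested members outside spans, with a median log2 change of -5.35. Of all 9273 tested loci outside spans, 2154 were higher and 5767 lower, with a median of -3.50. Among the 306 tested members inside exactly 1 span, 131 were higher and 114 lower, with a median of 0.16 (0.84 over the 18283 loci of any kind inside 1 span). Over all tested loci at any position, 39.0% were higher and 39.1% lower. Copies on the gene's strand had a median of 1.32 (63 loci) copies on the opposite strand 0.97 (136 loci), and copies in spans whose strand is not listed -2.09 (107 loci, of which 30 were higher and 58 lower). In the ORF2p RIP against the mock IP, 31 of the 205 members outside spans were higher and 21 lower, with a median of -0.05. In that comparison 30.4% of all tested loci at any position were higher and 15.2% lower. Fitted changes of loci with no read in a group depend on the prior count, so these medians are descriptions of the fit and not bounds.

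**Figure D3:**
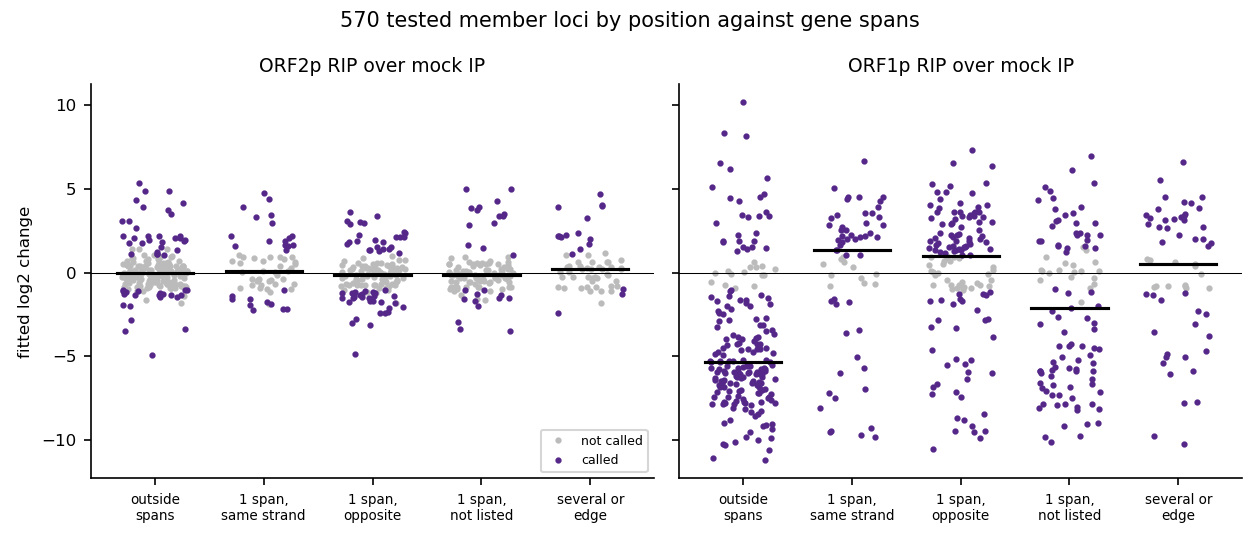
Fitted log2 change of each of the 570 tested member loci against the mock IP, by position relative to RefSeq gene spans; left the ORF2p RIP, right the ORF1p RIP. Points are loci (purple where called) and horizontal lines are medians; in the ORF1p RIP the loci outside spans have a median of -5.35, while in the ORF2p RIP the median there is -0.05.

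The few members outside spans that were higher in the ORF1p RIP lay nearer to genes. The 28 higher loci were a median of 8470 bases from the nearest span and 16 of them were within 10000 bases. The 162 lower loci were a median of 31972 bases away and 31 of them were within 10000 bases, and the 15 that were not called had a median of 8289 bases. These distances were not tested, since neighbouring loci may share transcripts and need not be independent. The 570 loci formed 463 runs when loci up to 10000 bases apart were joined, and 72 runs held 2 or more, 179 loci in all. In each of the 58 runs with 2 or more loci called between the ORF1p RIP and the mock IP, the called loci changed the same way, as in each of the 13 such runs between the ORF2p RIP and the mock IP. Between the ORF2p RIP and total RNA this held in 18 of 19 such runs, and 1 run held loci called both ways.

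Inside genes, a member changed with the other repeats of its gene in the ORF1p RIP. For 304 members in 232 spans, all repeat reads of the span that were not from a member were summed and tested in the same way. Across these loci Pearson's r between member and span was 0.925 for the ORF1p RIP against the mock IP and 0.613 for the ORF2p RIP against the mock IP, a description over loci that share libraries, spans and scaling. Of 243 members called in the first comparison, 208 lay in a span called the same way and 0 in a span called the opposite way. Of 107 called in the second, 31 lay in a span called the same way and 4 in one called the opposite way. The labels and headers do not say how the counting treated strand, so reads of a member and of its host transcript cannot be told apart.

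**Figure D4:**
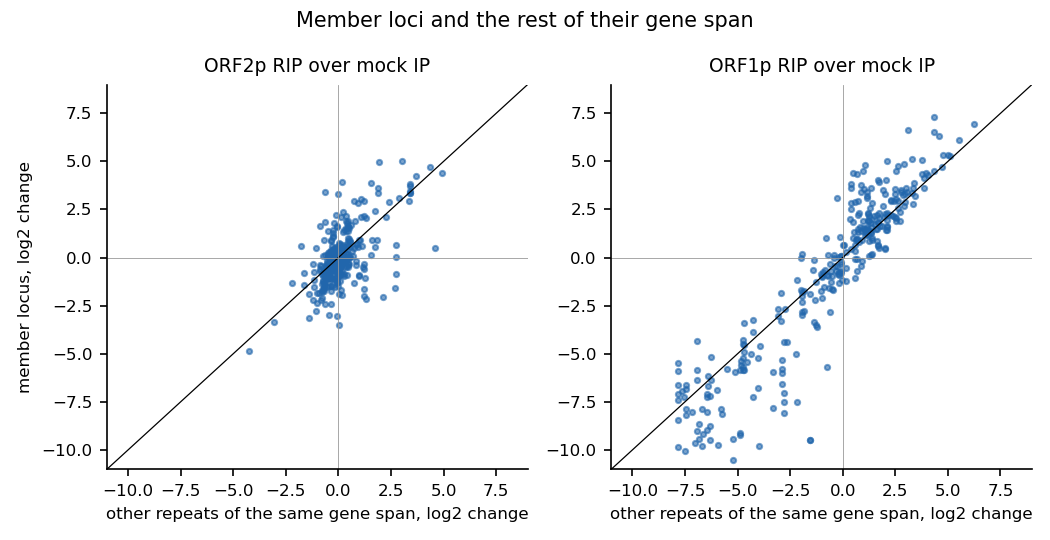
Log2 change of 304 member loci (vertical axis) against that of the other repeats of the same gene span (horizontal axis), for the ORF2p RIP over the mock IP (left) and the ORF1p RIP over the mock IP (right). Points are loci and the diagonal marks equal change; the points lie along it on the right (r = 0.925) and more loosely on the left (r = 0.613).

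The member with the highest level was a MER54A LTR in SNHG14 (chr15:25115167-25115549, plus strand, as is the gene), the host transcript of imprinted small nucleolar RNAs. It had 218, 144, 114 and 154 CPM in the ORF2p RIP, 205, 194, 193 and 156 CPM in the ORF1p RIP, 118, 99.6 and 106 CPM in the mock IP, and 7.12 to 34.9 CPM in the total RNA with a median of 11.1. All 11 libraries of the affinity preparations lay above all total RNA libraries. The log2 change against total RNA was 3.23 ± 0.38 in the ORF2p RIP (SE, edgeR adjusted p = 6.11e-07), 3.48 ± 0.38 in the ORF1p RIP (6.94e-08) and 2.69 ± 0.39 in the mock IP (0.000988). Neither RIP passed the test against the mock IP (0.54 ± 0.44 and 0.79 ± 0.44). The other 215 repeats of SNHG14 changed by 1.58 ± 0.09, 0.65 ± 0.09 and -0.14 ± 0.09 against total RNA.

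A second MER54A LTR lies on the opposite strand in NEDD4 (chr15:55959892-55960170), the gene of a ubiquitin ligase. It had 12.1, 7.59, 3.72 and 7.62 CPM in the ORF2p RIP, 122, 112, 193 and 177 CPM in the ORF1p RIP, 0.593, 1.49 and 0.659 CPM in the mock IP, and at most 0.808 CPM in the total RNA. The ORF1p RIP was higher than the mock IP by 7.31 ± 0.64 on the log2 scale (edgeR adjusted p = 5.94e-09) and the ORF2p RIP by 3.04 ± 0.53 (0.000113). The other 269 repeats of NEDD4 rose as well, by 4.33 ± 0.16 in the ORF1p RIP and by 1.05 ± 0.14 in the ORF2p RIP.

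Other members that were high in the ORF1p RIP lay near genes or alone. Neighbouring LTR82B copies near NECTIN3, the gene of a cell adhesion protein, were 3702 and 4055 bases from its span (chr3:111197872-111198175 and chr3:111198225-111198488). The first had 111, 105, 163 and 115 CPM in the ORF1p RIP and at most 0.855 CPM in the mock IP (8.13 ± 0.71, edgeR adjusted p = 6.41e-09), and the second 69.7, 76.8, 117 and 77.4 CPM and at most 0.366 CPM (8.30 ± 0.53, adjusted p = 1.45e-10). An ERVL-E-int copy on chromosome X (chrX:40864597-40865057) had 8.27, 9.39, 16.2 and 7.99 CPM in the ORF1p RIP and no read in the ORF2p RIP or the mock IP. It was at least 161-fold higher than in the mock IP, taking 3 reads over the group as the floor for a group at 0 (adjusted p = 2.07e-07). The count filter passes a locus through any group where it is high, so this difference partly follows from the filter. A LTR84b copy (chr22:34628667-34628743) had 28.2, 29.7, 29.1 and 18.2 CPM in the ORF1p RIP, no read in the ORF2p RIP, and reads in only 1 of 3 mock IP libraries (0.794 CPM).

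The leading loci of LTR57-int and LTR86C behaved alike. The LTR57-int locus (chr2:216215055-216216151), 738 bases from LINC01963, held 49.0% of the subfamily's ORF1p RIP reads and 6.44% of its mock IP reads. It had 35.3, 32.7, 61.1 and 37.6 CPM in the ORF1p RIP and 1.77, 2.27 and 1.65 CPM in the mock IP (4.45 ± 0.50, edgeR adjusted p = 1.6e-07). The LTR86C locus on the opposite strand in B3GALNT2, a glycosyltransferase gene (chr1:235479577-235479791), had 19.6, 18.6, 36.5 and 22.4 CPM in the ORF1p RIP and 1.38, 1.64 and 2.13 CPM in the mock IP (3.82 ± 0.45, adjusted p = 3.34e-07). The other repeats of B3GALNT2 changed by 0.39 ± 0.14. Both loci were above every mock IP and total RNA library in all 4 ORF1p RIP libraries, replicate 3 included or not.

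Several abundant members were almost missing from the ORF1p RIP. A pair of LTR33 copies 18 bases apart on chromosome 4 (chr4:87926820-87926943 and chr4:87926961-87927246) lay outside any span, and the longer held 10.3% and the shorter 8.95% of all LTR33 reads. The longer one had 146, 122, 96.0 and 114 CPM in the ORF2p RIP, 2.91, 2.73, 2.09 and 2.05 CPM in the ORF1p RIP, 174, 173 and 175 CPM in the mock IP, and 63.9 to 146 CPM in the total RNA. In the ORF1p RIP it changed by -6.15 ± 0.37 on the log2 scale against the mock IP (edgeR adjusted p = 9.4e-11), and the ORF2p RIP did not pass the test (-0.55 ± 0.31). The top MER21C locus (chr6:14286877-14287241, in LOC124901266) had 61.2, 52.4, 56.1 and 71.1 CPM in the ORF2p RIP, at most 0.320 CPM in the ORF1p RIP, and 82.8, 79.7 and 93.8 CPM in the mock IP (ORF1p RIP over mock IP -9.03 ± 0.47, adjusted p = 1.99e-11). It had 5 reads over the ORF1p RIP libraries, so this change and its SE describe the fit and do not bound the fall. The other 3 repeats of that span changed by -6.92 ± 0.31.

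LTR40A1 showed the same at 2 loci. Its leading copy, in LINC01697 (chr21:28063267-28063726), had 25.7, 19.5, 26.6 and 27.4 CPM in the ORF2p RIP, 0, 0.124, 0 and 0.342 CPM in the ORF1p RIP, and 30.8, 36.2 and 47.7 CPM in the mock IP (ORF1p RIP over mock IP -8.18 ± 0.57, edgeR adjusted p = 4.01e-10). With so few reads in the ORF1p RIP, the change of this copy and its SE also describe the fit only. The other repeats of LINC01697 changed by -7.45 ± 0.30. A copy outside any span (chr2:76610512-76610802) had no read in the ORF1p RIP, against 16.9, 23.7 and 24.9 CPM in the mock IP, and was at least 236-fold lower. The leading MER76-int copy, in LINC01508 (chr9:90420208-90422125), had 3 reads in the ORF1p RIP, and the mock IP level was 159 times higher (95% counting interval 54.3 to 775, which covers counting error only). The leading LTR80B copy, on chromosome 8, averaged 62.4 ± 1.74 CPM in the ORF2p RIP, 1.08 ± 0.203 CPM in the ORF1p RIP and 44.2 ± 6.54 CPM in the mock IP. In total RNA it had 32.1 and 38.2 CPM in replicates 1 and 2 and 137 to 178 CPM in replicates 3 to 6.

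**Figure D5:**
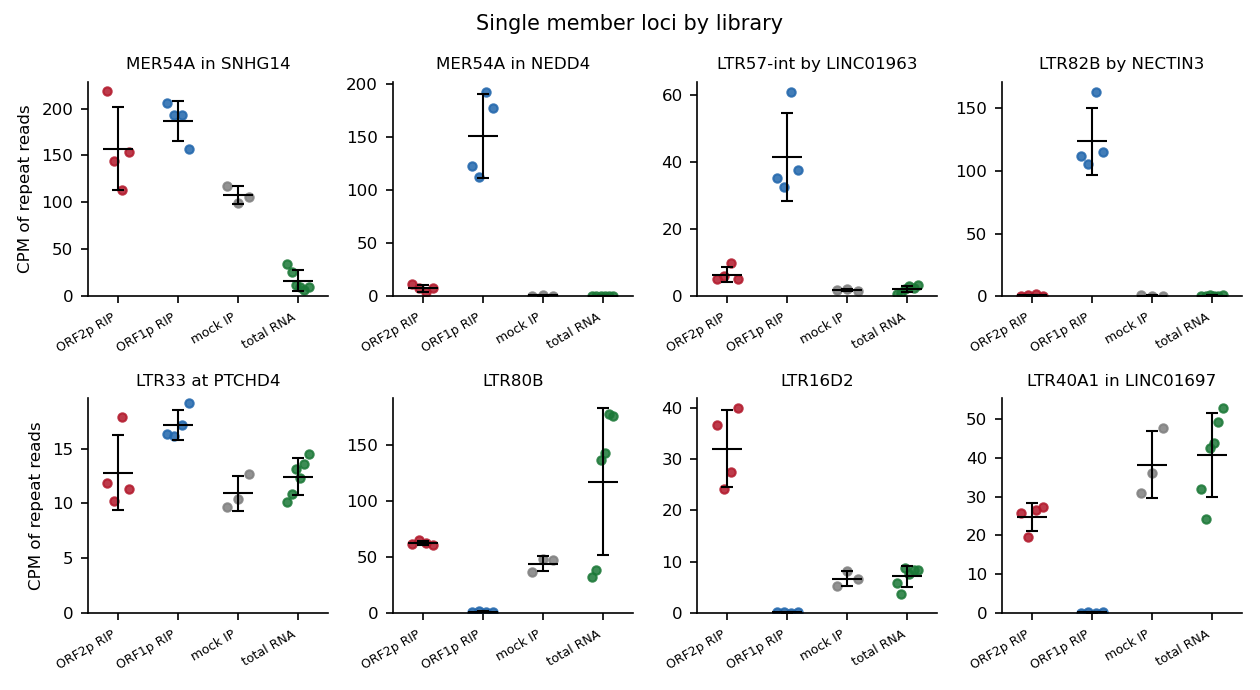
CPM of 8 member loci in each library, on linear axes from 0. Points are libraries, horizontal marks are means and bars are 1 SD. The MER54A in NEDD4, the LTR57-int and the LTR82B loci are high in the ORF1p RIP. The LTR80B, LTR16D2 and LTR40A1 loci are near 0 there. The LTR33 at PTCHD4 is read in all groups, with its highest mean in the ORF1p RIP.

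Some members were higher in the ORF2p RIP than in both the ORF1p RIP and the mock IP. The total RNA levels of these copies are not given here. A LTR75 copy 4941 bases from BRCC3, the gene of a deubiquitinase (chrX:155128018-155128537), had 16.9, 15.6, 15.1 and 14.8 CPM in the ORF2p RIP, 1.39, 1.74, 1.45 and 1.03 CPM in the ORF1p RIP, and 0.183, 0.243 and 0.751 CPM in the mock IP. The ORF2p RIP was higher than the mock IP by 5.32 ± 0.46 on the log2 scale (edgeR adjusted p = 1.05e-07) and than the ORF1p RIP by 3.47 ± 0.37 (7.36e-08). A MER21C copy 8227 bases from BRDT, a testis bromodomain gene (chr1:91940514-91941144), had 31.2, 25.3, 18.1 and 31.4 CPM in the ORF2p RIP, none in the ORF1p RIP, and 1.10, 1.52 and 1.44 CPM in the mock IP (ORF2p RIP over mock IP 4.29 ± 0.42, adjusted p = 8.75e-07). It was at least 286-fold higher in the ORF2p RIP than in the ORF1p RIP. The count filter could pass it through the ORF2p RIP, so this bound partly follows from the filter.

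Adjoining ERV3-16A3_I-int and LTR16B1 copies over the spans of GABRQ, a GABA receptor subunit gene, and MAGEA3-DT (chrX:152658268-152658554 and chrX:152658558-152658742) moved together. They averaged 19.7 ± 3.79 and 20.4 ± 2.63 CPM in the ORF2p RIP (SD, n = 4), 0.151 ± 0.132 and 0.147 ± 0.201 CPM in the ORF1p RIP (n = 4), and 0.763 ± 0.210 and 1.34 ± 0.283 CPM in the mock IP (n = 3). The ORF2p RIP was higher than the mock IP by 4.65 ± 0.48 and 3.92 ± 0.52 on the log2 scale (edgeR adjusted p = 5.18e-07 and 6.96e-06). The leading LTR16D2 copy (chr7:125233955-125234443) had 36.6, 24.1, 27.4 and 39.9 CPM in the ORF2p RIP, at most 0.248 CPM in the ORF1p RIP, and 5.19, 8.20 and 6.58 CPM in the mock IP. Against the mock IP it rose in the ORF2p RIP (2.26 ± 0.39, adjusted p = 8.29e-05) and fell in the ORF1p RIP (-5.37 ± 0.51, adjusted p = 1.71e-08).

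A member high in both RIPs was a LTR16A2 copy in TYW3, a tRNA modification gene (chr1:74764340-74764388). It averaged 24.9 ± 7.57 CPM in the ORF2p RIP, 11.0 ± 2.36 CPM in the ORF1p RIP and 0.791 ± 0.426 CPM in the mock IP. Against the mock IP it changed by 4.98 ± 0.59 in the ORF2p RIP (edgeR adjusted p = 2.23e-06) and by 3.79 ± 0.57 in the ORF1p RIP (5.8e-06), while the other repeats of TYW3 rose by 1.93 ± 0.17 and 0.86 ± 0.17.

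Some members had less signal in the ORF2p RIP than in the mock IP. A LTR84a copy 1433 bases from BCL2L14, a gene of the BCL2 family (chr12:12048346-12048428), averaged 3.85 ± 0.883 CPM in the ORF2p RIP (SD, n = 4), at most 0.107 CPM in the ORF1p RIP, 45.5, 47.1 and 38.8 CPM in the mock IP, and 21.7 to 76.2 CPM in the total RNA. In the ORF2p RIP it changed by -3.51 ± 0.42 on the log2 scale against the mock IP (edgeR adjusted p = 2.09e-06) and by -3.54 ± 0.39 against total RNA. A LTR50 copy on the opposite strand in MEIS2, a homeobox gene (chr15:36986260-36986907), had no read in the ORF2p RIP, 12.3, 8.69, 12.2 and 9.06 CPM in the ORF1p RIP, and 0.454, 0.121 and 0.225 CPM in the mock IP. It was at least 3.71-fold lower in the ORF2p RIP than in the mock IP and at least 147-fold lower than in the ORF1p RIP. The mock IP level of this copy was itself near 0, so the 3.71-fold value rests on few reads. The count filter could pass the copy through the ORF1p RIP, so the 147-fold value partly follows from the filter. The other 176 repeats of MEIS2 changed by -4.23 ± 0.50 and -9.35 ± 0.52 in the same comparisons.

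The divergence of a copy was weakly related to its change. Over the 570 tested loci Spearman's rho between divergence and the ORF1p RIP change against the mock IP was -0.28, and it was -0.19 over the 205 loci outside spans and -0.22 over the others. Loci higher in the ORF1p RIP had a median divergence of 227 and lower ones 276. For the ORF2p RIP against the mock IP rho was 0.00. These are descriptions over loci that share libraries, and loci outside spans were more diverged (a median of 274 against 242).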

How the data were processed

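RNA was read in 17 libraries of N2102Ep cells made with a Trio RNA-seq kit after rRNA depletion, per the labels. The authors deposited a table of expected counts, estimated reads per repeat locus that need not be whole (68.6% to 86.2% of values in a library were whole within 1e-06). Per the submitters' processing notes, reads were aligned with STAR and the build was hg38, with the counting program not given in the sources used here. Of the table's columns 17 were used and 43 were not used. Counts were rounded and tested with edgeR 4.0.16 (quasi-likelihood, R 4.3.3), once as subfamily sums (filterByExpr with a minimum count of 10, TMM) and once per locus (minimum 100, the same scaling), with Benjamini-Hochberg adjustment over all features tested. Every adjusted p in the text is from that fit. Where a group has few reads, fitted changes and their SE are descriptions of the fit and not bounds. A call needed an adjusted p below 0.05 and 2-fold. A group with no read was given a floor of 3 reads over the group, and a group with 1 to 3 reads a 95% interval, which cover counting error only. Gene spans (59679) and promoters were RefSeq GRCh38.p14. Starts in locus names count from 0 and are printed from 1.

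Named subfamilies were the 6 of highest mean and, per comparison, up to 3 higher and 3 lower of the largest change among those called with at least 4 CPM in 1 group. Named loci were the 8 of highest mean, per comparison up to 3 higher and 3 lower of the largest change among called loci whose groups did not overlap, the leading locus of each named subfamily, and tested loci at promoters. Not every locus that these rules name is described in the text. The members and these rules were chosen with earlier results of these data known. Alternatives were library totals, DESeq2 1.42.0, other filters, a replicate block, leaving out leading loci or each library, and the b or bl total RNA alone. Depth was 7693841 to 19670774 repeat reads per library.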

Additional observations from a re-analysis of the deposited data

Results flagged for a closer look

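Of 172 groups of 4 to 6 libraries checked for a library far from the rest, 6 had one, and chance alone flags about 5% of such groups. In 4 of these 6 it was replicate 3 of the ORF1p RIP. LTR57-int stood at 120 CPM there, against 74.8 CPM in the nearest ORF1p RIP library. The ERVL-E-int copy at chrX:40864597-40865057 stood at 16.2 CPM, against 9.39 CPM in the nearest. The LTR82B copies near NECTIN3 stood at 163 CPM (chr3:111197872-111198175), against 115 CPM in the nearest, and at 117 CPM (chr3:111198225-111198488), against 77.4 CPM. In the ORF1p RIP the LTR84b copy at chr22:34628667-34628743 was low in replicate 4, at 18.2 CPM, against 28.2 CPM in the nearest. In the total RNA the LTR16A copy at chr4:14187036-14187260 was high in replicate 6, at 42.0 CPM, against 25.5 CPM in the nearest.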

How the results depend on the processing

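The 12, 2, 16, 14, 1 and 0 subfamilies called for the ORF1p RIP against mock IP, ORF2p RIP against mock IP, ORF2p against ORF1p RIP, ORF1p RIP against total RNA, ORF2p RIP against total RNA and mock IP against total RNA are given below in this order. The shares called over all features tested are not given for the alternatives. Without leading loci the ORF1p RIP against the mock IP gave 6, the ORF2p against the ORF1p RIP 10 and the ORF1p RIP against total RNA 9. Library totals leave out the TMM factors, which averaged 0.840 in the ORF2p RIP and 1.04 in the mock IP. With them the ORF2p RIP against the mock IP gave 7 and the ORF2p RIP against total RNA 9. The ORF2p RIP against total RNA gave 0 with the replicate number as a block, 3 with total RNA of series b and 4 with series bl, and the mock IP against total RNA gave 4 with series bl. Same-numbered libraries had r of -0.50 to 0.49 with a median of 0.17 (21 pairs). Those of other numbers had -0.52 to 0.51 with a median of -0.07 (85 pairs). The ranges nearly coincide, so these values do not settle whether libraries were paired. Leaving out 1 library gave 10 to 13, 1 to 4, 12 to 17, 13 to 15, 0 to 1 and 0 to 1. The 481, 177, 479, 480, 210 and 45 loci called became 1167, 448, 1216, 1184, 548 and 76 with a minimum count of 50, by admitting more loci. Leaving out 1 library gave 444 to 589, 152 to 193, 440 to 600, 440 to 599, 185 to 261 and 8 to 109. The 45 loci became 81 with DESeq2, 3 with the replicate block, 13 with series b and 146 with series bl. With HERVL and MLT2 loci added, the share of repeat reads was 2.02% in the ORF2p RIP, 2.24% in the ORF1p RIP, 2.78% in the mock IP and 2.84% in the total RNA. Leaving out 1 library moved the mean share over 1.45% to 1.49%, 1.59% to 1.77%, 1.99% to 2.02% and 1.99% to 2.11%. Of the named values 1 reversed: the leading LTR80B locus, -1.41 for the mock IP against total RNA, was 0.31 against series b alone. The causes were not tested. For the LTR84b copy on chromosome 22 all mock IP reads were in replicate 1, so no value against the ORF2p RIP was possible without it. Depth limits the low loci: members below the count filter were described and not tested.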
